A study of Homo sapiens with 4 samples.

Results

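The 41 genes described here copy the genome in S phase or prepare the cell for it. They were chosen by name as known replication genes, with earlier results of these data known. All 41 were measured, among 19775 genes with a probe set assigned to 1 gene symbol, and all 41 passed the filter on dim genes, which kept 12190 genes (a mean signal of about 64.6 or more). Expression was measured on 4 one-colour Affymetrix HG-U133 Plus 2.0 arrays of MIA PaCa-2, an established line of epithelial pancreatic carcinoma cells. The 2 control arrays (a and b) came from cells transduced with a lentivirus for GFP. The 2 ING3 arrays (a and b) came from cells transduced with a lentivirus for FLAG-tagged full-length ING3, a PHD-finger protein of the human NuA4 acetyltransferase, in a vector with a CMV promoter and puromycin resistance. Stably transfected cells of both kinds were selected before RNA was isolated, and how many clones they came from was not given in the sources used here. By the series' own design text the duplicates within a group are technical, so the tests set a difference against technical spread and compare these 2 cell populations only. The brightest probe set of ING3 had signals of 338 and 373 in control and 521 and 541 in ING3 cells, which is 0.58 apart on the log2 scale (SE 0.13, limma adjusted p = 0.071), so it was higher on both ING3 arrays without passing the test. The next brightest ING3 probe sets had differences of -0.19 and 0.018, and where the probes lie relative to the introduced coding sequence was not examined.

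DNA replication is prepared in G1, when CDC6 and CDT1 load the MCM2-7 ring onto origins that the origin recognition complex has marked. In S phase CDC45 and the GINS complex join the ring to form the active helicase. Primase and polymerase alpha then start each new strand, the sliding clamp PCNA holds polymerases delta and epsilon on the template, and FEN1 and LIG1 join the fragments of the lagging strand. Ribonucleotide reductase, thymidylate synthase and thymidine kinase supply the deoxynucleotides. Cyclin E with its kinase and the E2F factors, which RB holds back in G1, switch many of these genes on together. In a bulk sample fewer cells in S phase and less transcript in each such cell cannot be told apart.

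The promoters of these genes are shown because shared E2F elements are what the group is known for. CCAAT boxes were searched as well, and the data below show how genes with and without each element compared. RefSeq promoter windows of GRCh38.p14, from 250 bases before to 50 after each listed start, were matched to 35 of the 41 genes, of which 8 had more than 1 listed start. The 4 E2F octamers searched on both strands were TTTCCCGC, TTTCGCGC, TTTGCCGC and TTTGGCGC, and overlapping matches were merged. At least 1 octamer stood in the windows of 19 of the 35 genes (54.3%), against 1090 of 27305 genes in the whole promoter table (3.99%) and 654 of 9928 tested genes with a window (6.59%). The CCAAT pentamer, the core of the NF-Y element, stood in 21 of the 35 genes (60.0%). It stood in 39.7% of all genes in the table and in 42.8% of the tested genes with a window. By window rather than by gene, an octamer stood in 43.5% of the 46 windows of replication genes and in 3.31% of all 35116 windows. Of the 24 merged octamer sites, 17 in 16 genes lay between base -60 and base 15 relative to the start, a range chosen after the sites were seen.

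The 150 bases before the start are given for TYMS and RRM1, which had the largest positive differences within nucleotide supply, and for CDT1 and E2F1, 2 genes with lower signals on their brightest probe sets. FEN1, whose log2 difference was more negative than that of E2F1 (-0.42 against -0.38), held neither element in its window and is not printed. Capitals mark E2F octamers and CCAAT boxes on either strand, and each sequence runs 5′ to 3′ on the strand of the gene. TYMS and CDT1 each hold 1 octamer in this stretch, E2F1 holds 2 octamers and 2 CCAAT boxes, and RRM1 holds 1 CCAAT box.
TYMS, chr18:657503-657652, plus strand: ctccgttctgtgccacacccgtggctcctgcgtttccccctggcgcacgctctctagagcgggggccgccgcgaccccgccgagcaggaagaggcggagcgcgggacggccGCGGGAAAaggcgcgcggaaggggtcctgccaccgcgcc
RRM1, chr11:4094535-4094684, plus strand: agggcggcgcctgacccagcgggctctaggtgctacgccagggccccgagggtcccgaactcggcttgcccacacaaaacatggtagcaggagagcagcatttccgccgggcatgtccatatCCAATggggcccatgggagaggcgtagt
CDT1, chr16:88803639-88803788, plus strand: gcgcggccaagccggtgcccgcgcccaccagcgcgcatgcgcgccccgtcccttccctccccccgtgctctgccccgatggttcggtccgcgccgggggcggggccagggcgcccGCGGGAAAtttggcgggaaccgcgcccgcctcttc
E2F1, chr20:33686386-33686535, minus strand: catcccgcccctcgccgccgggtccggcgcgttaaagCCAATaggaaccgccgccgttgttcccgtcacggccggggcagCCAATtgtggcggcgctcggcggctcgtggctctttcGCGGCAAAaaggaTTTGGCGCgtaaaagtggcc
Sites of 30 bases are given for genes of the helicase and the clamp, with the octamer in capitals; in MCM6 octamers on both strands overlap to give a run of 12 bases.
GINS1, chr20:25407667-25407696, plus strand: agctttgttcgGCGCCAAAgcgcggagcgg
PCNA, chr20:5126663-5126692, minus strand: cagcgtcagggGCGGGAAAaggcgtgcgtt
MCM7, chr7:100101388-100101417, minus strand: ggggggcgacgTTTCGCGCcaatttcggtt
MCM6, chr2:135876513-135876542, minus strand: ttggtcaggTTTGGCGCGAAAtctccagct

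**Figure D1:**
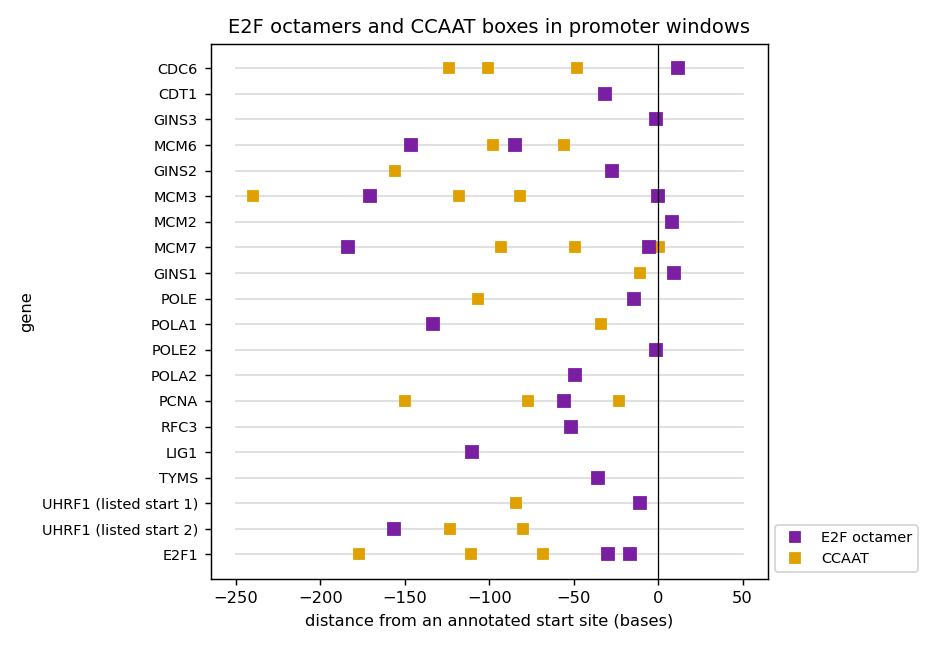
Positions of E2F octamers (purple) and CCAAT boxes (yellow) in the promoter windows that hold at least 1 octamer, in bases from a listed start site, with 1 line per window. Of the 24 octamer sites, 17 lie between base -60 and base 15.

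None of the 41 genes passed the test between ING3 and control cells (limma, adjusted p under 0.05 over all genes), where 1.5% of the 12190 tested genes did. The lowest adjusted p among them was 0.071, for RRM1. At an unadjusted p under 0.05 there were 6 of 41, or 14.6%, against 17.7% of all tested genes: TYMS, RRM1 and RPA3 with higher signals in ING3 cells (9.54% of all tested genes) and CDT1, FEN1 and GINS1 with lower ones (8.19%). Both ING3 arrays lay above both control arrays for 14 of the genes (24.3% of all tested genes) and below them for 10 (24.9% of all), together 58.5% against 49.2%. The median log2 difference (ING3 minus control) of the 41 genes was 0.017, beside -0.0074 for all tested genes, and the means of 22 genes were higher and of 19 lower in ING3 cells.

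The differences were small. Their median absolute size was 0.11 on the log2 scale, against 0.064 between the 2 control arrays and 0.12 between the 2 ING3 arrays for the same genes. For 19 of the 41 the difference between groups exceeded both differences between duplicates, as it did for 36.9% of all tested genes. The 95% interval of the difference lay within a 1.5-fold change in either direction for 35 genes. CDT1, CDC45, PRIM2, FEN1, LIG1 and E2F1 had intervals that reached beyond 1.5-fold.

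**Figure D2:**
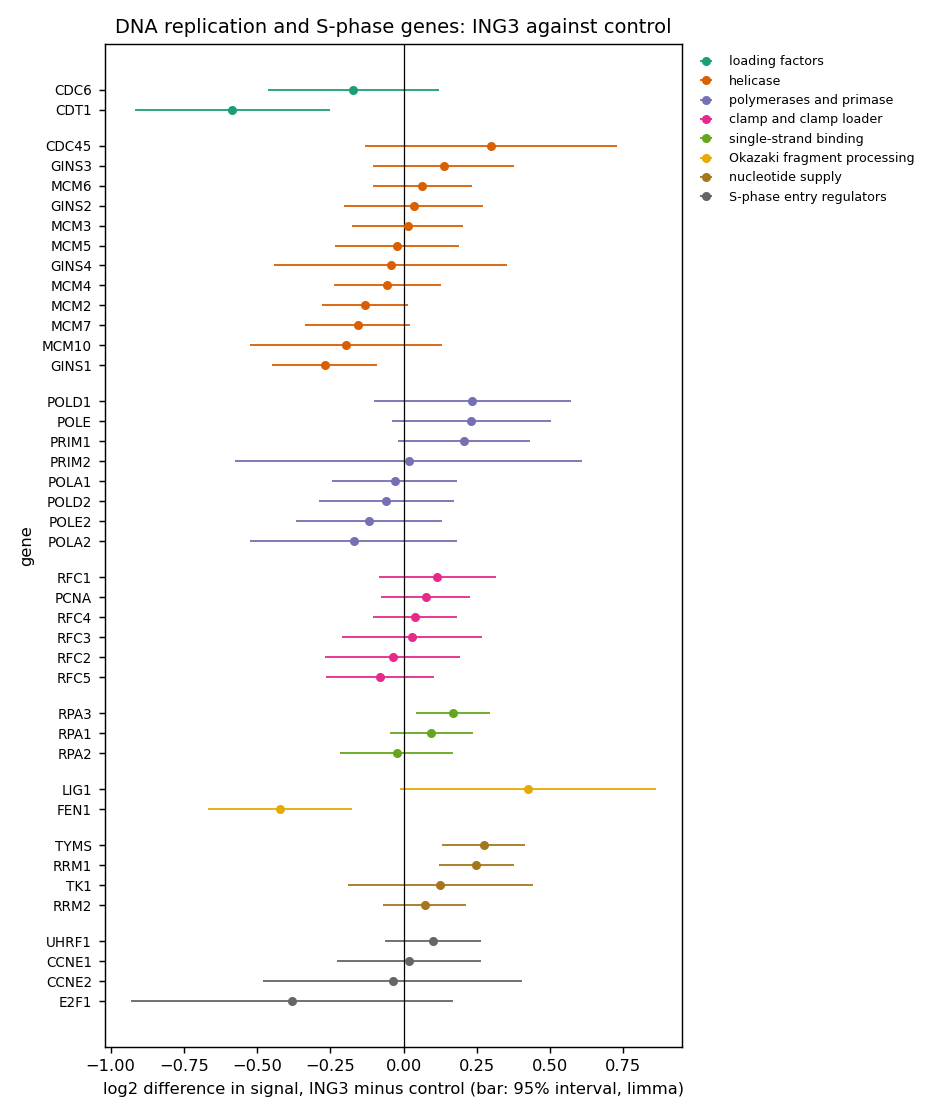
Log2 difference in signal (ING3 minus control, x axis) of each of the 41 genes, grouped by role, with the limma 95% interval as a bar. The 4 genes of nucleotide supply lie to the right of 0 and the 2 loading factors to the left, while the other groups lie on both sides.

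The 19 genes with an octamer had a median log2 difference of 0.013, with 10 higher and 9 lower in ING3 cells. The 16 genes whose windows held none had a median of 0.056, with 11 higher and 5 lower. Only exact matches to the octamers were counted, so these windows were not shown to lack other E2F sites. Genes with a CCAAT box had a median of 0.063 and those without it 0.017. Each of these sets held genes on both sides of 0, from -0.58 (CDT1) to 0.42 (LIG1) among the genes with an octamer.

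Both loading factors had lower means in ING3 cells. CDT1, which brings the MCM ring to the origin and is kept in check by geminin, had signals of 1235 and 924 on control arrays a and b and 782 and 648 on ING3 arrays a and b. Both ING3 arrays were below both control arrays, and the 2 control arrays also differed from each other. On the log2 scale ING3 minus control was -0.58 (SE 0.15, limma adjusted p = 0.090), the most negative of the 41 genes. This brightest probe set is of the cross-hybridising _x_at kind, and the other CDT1 probe set went the opposite way without overlap: it had 263 and 197 in control cells against 350 and 376 in ING3 cells, which is a log2 difference of 0.67 (SE 0.19, adjusted p = 0.17 over all probe sets). The 2 probe sets leave the direction of CDT1 unsettled, and the mean over them gave a difference of 0.043. CDC6, the ATPase that acts with CDT1, had 546 and 490 in control and 480 and 439 in ING3 cells, all control values above all ING3 values by a small margin, with a log2 difference of -0.17 (SE 0.13, adjusted p = 0.53). Without ING3 array a CDT1 passed the test, at a log2 difference of -0.72 (adjusted p = 0.049), and without control array a it was -0.38 (adjusted p = 0.42).

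Of the 12 helicase genes 5 had higher means in ING3 cells and 7 lower, and the median log2 difference was -0.034. The sign of this median depended on the normalization: it was 0.0051 after quantile normalization and 0.0089 after cyclic loess. MCM2, a subunit of the ring that also binds histones, had 2864 and 2840 in control cells against 2603 and 2601 in ING3 cells, which is a log2 difference of -0.13 (SE 0.065, adjusted p = 0.33). Its duplicates were close to each other and the groups did not overlap. MCM7 was lower on its brightest probe set, with 1843 and 1779 against 1692 and 1558 (log2 difference -0.16, SE 0.079), but its second probe set was higher, with 1529 and 1494 against 1662 and 1554, again without overlap.

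The remaining ring subunits differed by less than their error. MCM3 had 1582 and 1762 in control and 1731 and 1641 in ING3 cells, which is a log2 difference of 0.013 with a 95% interval of -0.18 to 0.20. MCM5 had 942 and 984 against 981 and 914, a difference of -0.024 with an interval of -0.24 to 0.19. MCM4 and MCM6 had log2 differences of -0.056 and 0.063, and their intervals also included 0. In each of these 4 genes the values of the groups overlapped.

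Among the factors that complete the helicase, GINS1 had the largest difference for its error of the 12 helicase genes. It had 1831 and 2017 in control cells against 1604 and 1585 in ING3 cells, so that all ING3 values were below all control values, with a log2 difference of -0.27 (SE 0.080, adjusted p = 0.13). The other GINS subunits did not share this direction throughout: GINS2 and GINS3 had log2 differences of 0.035 and 0.14. GINS4 had 600 and 627 in control and 483 and 733 in ING3 cells, where the ING3 duplicates lay on both sides of the control values (-0.044, SE 0.18). Its 4 probe sets ranged from -0.59 to 0.32. CDC45, the partner of GINS in the helicase, had 196 and 239 against 252 and 282, higher on both ING3 arrays, with a log2 difference of 0.30 (SE 0.19, adjusted p = 0.45). MCM10, which helps to activate the helicase, had a difference of -0.20 (SE 0.15) on its brightest probe set and of 0.15 and -0.023 on its others.

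The 8 polymerase and primase genes were split evenly, 4 higher and 4 lower, with a median log2 difference of -0.0062. After quantile normalization this median was 0.076, and after cyclic loess 0.073. POLE, the catalytic subunit of the leading-strand polymerase, had 510 and 547 in control and 587 and 656 in ING3 cells (log2 difference 0.23, SE 0.12, adjusted p = 0.35). POLD1, the catalytic subunit of polymerase delta, had 319 and 327 against 357 and 404 (0.23, SE 0.15). PRIM1, the catalytic primase subunit, had 776 and 719 against 873 and 851 (0.21, SE 0.10). In these 3 of the 8 genes both ING3 arrays were above both control arrays, as for 24.3% of all tested genes. They were named together after their values were seen, and none passed the test.

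The remaining polymerase and primase genes did not share this pattern. POLE2, the second subunit of polymerase epsilon, had 614 and 620 against 573 and 564, lower on both ING3 arrays (log2 difference -0.12, SE 0.11). PRIM2, the large primase subunit, had 194 and 190 in control but 252 and 150 in ING3 cells, so that its ING3 duplicates stood further apart than the groups (0.018, SE 0.26). POLA1, POLA2 and POLD2 had differences of -0.030, -0.17 and -0.060. A second POLA2 probe set had a difference of 0.84 (SE 0.60), with 1 control array at 25.3 and the other 3 arrays between 88.3 and 109, against -0.17 for the brightest.

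PCNA and its loader differed little between the groups, from -0.081 to 0.11 on the log2 scale over 6 genes. PCNA, the sliding clamp, had 6083 and 6740 in control and 6928 and 6575 in ING3 cells, overlapping, with a difference of 0.076 and a 95% interval of -0.077 to 0.23. RFC1, the large subunit of the loader, had 1183 and 1129 in control and 1197 and 1307 in ING3 cells, higher on both ING3 arrays (0.11, SE 0.089). A second probe set of RFC1, of the _x_at kind, gave 0.35 (SE 0.10, adjusted p = 0.19 over all probe sets). RFC4 was also higher on both ING3 arrays, by 0.040, while RFC2, RFC3 and RFC5 overlapped between the groups; RFC3, for example, had 2868 and 2535 against 3071 and 2463 (0.028).

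Replication protein A, which coats single-stranded DNA, had 2 of 3 subunits higher on both ING3 arrays, as were 24.3% of all tested genes. RPA3, the smallest subunit, had 6262 and 6198 in control and 6898 and 7107 in ING3 cells, which is a log2 difference of 0.17 (SE 0.057, adjusted p = 0.17). The duplicates of RPA3 were closer to each other than the groups were. RPA1, the large DNA-binding subunit, differed by 0.095 on its brightest probe set and by 0.15 and 0.052 on its others. RPA2 had 1671 and 1657 against 1747 and 1534, overlapping (-0.023).

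FEN1 and LIG1, which act one after the other on Okazaki fragments, lay on opposite sides. FEN1, the flap endonuclease, had 2573 and 2559 in control cells against 1684 and 2177 in ING3 cells, which is a log2 difference of -0.42 (SE 0.11, adjusted p = 0.093). Its control duplicates were nearly equal while its ING3 duplicates differed, and both ING3 values were lower. The second FEN1 probe set was also lower without overlap, at 660 and 732 against 546 and 619 (-0.26, SE 0.12). LIG1, the ligase that seals the nick, had 209 and 292 in control and 330 and 333 in ING3 cells (0.42, SE 0.19, adjusted p = 0.29). Here it was the control duplicates that differed. Without ING3 array b FEN1 passed the test, at a log2 difference of -0.61 (adjusted p = 0.0079), and without ING3 array a it was -0.24 (adjusted p = 0.15). LIG1 was at 0.18 without control array a and at 0.66 without control array b.

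The genes of nucleotide supply were higher in ING3 cells in all 4 means, with a median log2 difference of 0.19, and in 3 of 4 both ING3 arrays were above both control arrays (24.3% of all tested genes). TYMS, thymidylate synthase, had 10453 and 10811 in control and 12233 and 13496 in ING3 cells (log2 difference 0.27, SE 0.063, adjusted p = 0.071). RRM1, the large subunit of ribonucleotide reductase, had 6953 and 6999 against 8090 and 8483 (0.25, SE 0.057, adjusted p = 0.071). RRM2, its S-phase subunit, had 3264 and 3218 against 3361 and 3452, a smaller difference of 0.072 (SE 0.063), and TK1, the cytosolic thymidine kinase, overlapped, with 1028 and 888 against 1206 and 901. The TK1 difference of 0.13 turned to -0.085 without ING3 array a.

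Of the 8 probe sets of these 4 genes past the filter all 8 had a higher mean in ING3 cells, and for 6 both ING3 arrays were above both control arrays, as for 19.4% of all probe sets tested. TYMS had a second probe set with 1210 and 1305 in control and 1623 and 2164 in ING3 cells (0.58, SE 0.13, adjusted p = 0.11 over all probe sets), and its remaining probe set, under the filter, had a difference of -0.81. The second probe set of RRM2 had 2503 and 2468 against 2967 and 3250 (0.32, SE 0.074, adjusted p = 0.12), and that of RRM1 had 641 and 662 against 778 and 775 (0.25, SE 0.10). Probe sets of 1 gene share its RNA and are not replicates. Without ING3 array a TYMS and RRM1 passed the test, at 0.34 (adjusted p = 0.017) and 0.28 (adjusted p = 0.041), and without either control array neither did.

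**Figure D3:**
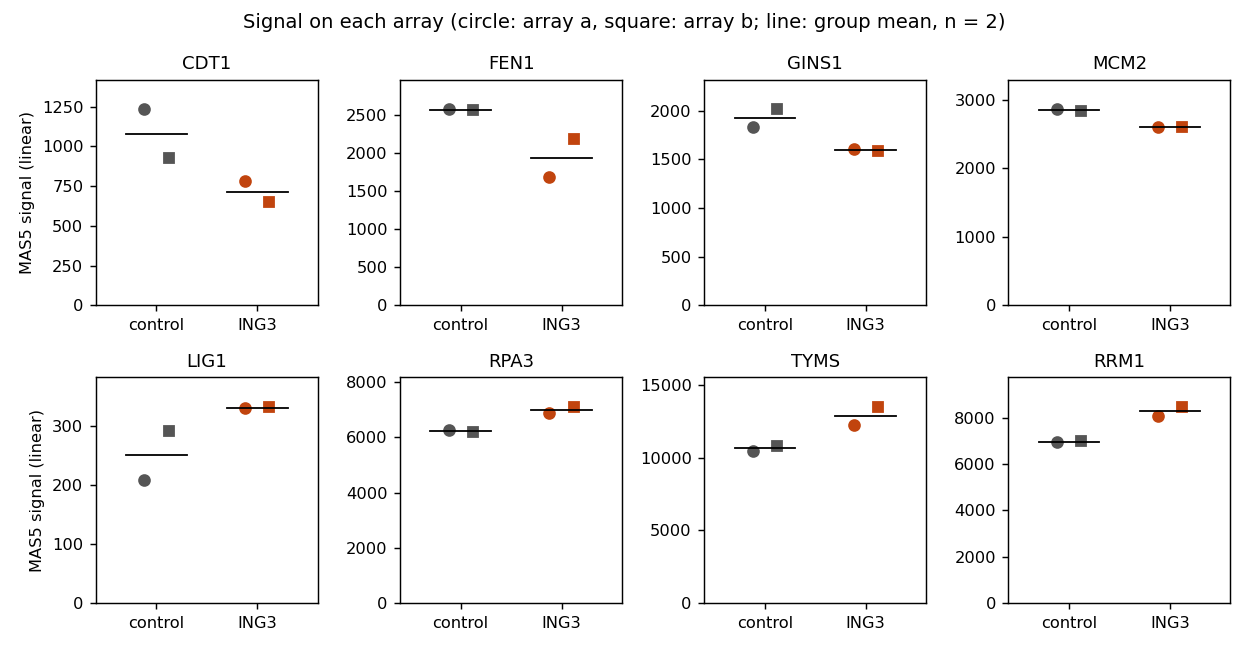
Linear MAS5 signal on each array of 8 genes, the 4 with the largest moderated t in each direction, with control arrays in grey and ING3 arrays in orange (circle array a, square array b) and a line at each group mean. In each panel the 2 ING3 arrays lie on one side of the 2 control arrays; relative to their level, the duplicates of CDT1, FEN1 and LIG1 are the farthest apart.

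The regulators of S-phase entry had no common direction. E2F1, the activator of many of these genes and a target of RB, had 247 and 168 in control cells against 158 and 154 in ING3 cells, which is a log2 difference of -0.38 (SE 0.24, adjusted p = 0.45). Without control array a the difference was -0.10. Its second probe set had 171 and 179 against 152 and 123, also lower on both ING3 arrays (-0.36, SE 0.23). CCNE1 and CCNE2, the cyclins E, overlapped between the groups, with log2 differences of 0.017 (639 and 610 against 645 and 620) and -0.037 (199 and 231 against 216 and 202). UHRF1, which brings the maintenance methyltransferase to newly copied DNA, had 2423 and 2439 against 2731 and 2488 (0.10, SE 0.073).

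Of the 78 probe sets of these genes 69 passed the filter, and none was called over all probe sets tested (0.37% of 27307 were). Of the 69, 12 had an unadjusted p under 0.05, as had 15.7% of all probe sets. For 37 of the 69 the arrays of the groups did not overlap, against 48.1% of all probe sets. Of the 22 genes with more than 1 probe set past the filter, 14 had all of them on the same side of 0 and 8 did not (CDT1, MCM5, MCM7, MCM10, GINS4, POLA2, RFC2 and RFC5). For CDT1, GINS4 and POLA2 the probe sets lay more than 0.5 apart on the log2 scale and on both sides of 0. After quantile normalization or cyclic loess MCM5, GINS4, POLA1 and CCNE2 had the opposite sign, all of them genes whose groups overlapped.

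**Figure D4:**
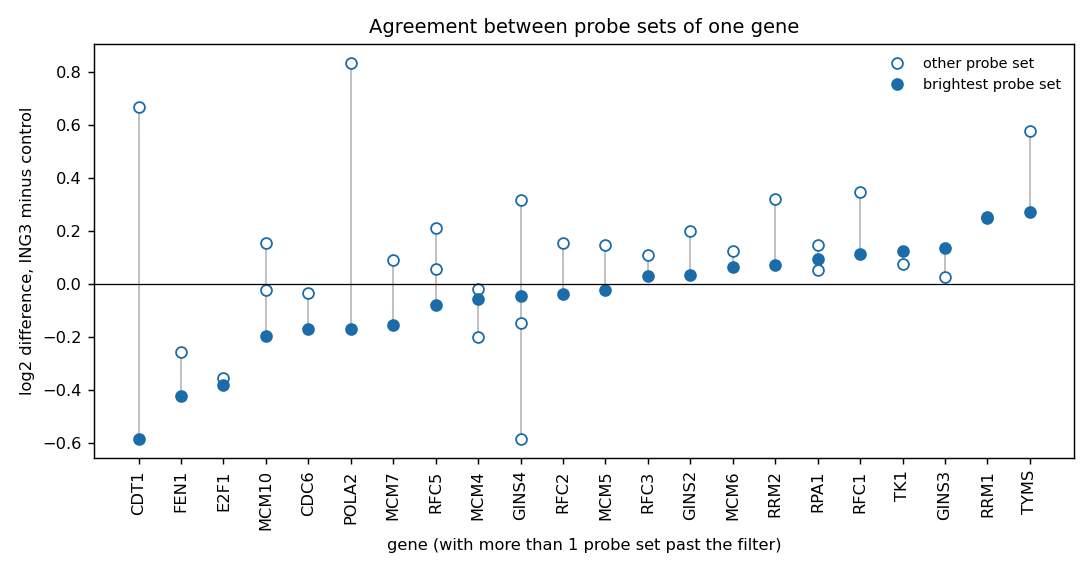
Log2 difference (ING3 minus control, y axis) of each probe set past the filter, for the 22 genes that have more than 1, with the brightest probe set filled and the others open. Those of TYMS, RRM2, RRM1 (2 coinciding points at 0.25) and FEN1 lie on one side of 0, while those of CDT1, GINS4 and POLA2 span it.

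Other genes of replication and the cell cycle were taken from 8 lists, of which 125 genes were tested. GMPS and NDC80 rose and 0 genes fell (1.03% and 0.476% of all tested genes were called higher and lower), and 27 (21.6%) had an unadjusted p under 0.05, against 17.7% of all tested genes. GMPS, the GMP synthase of purine synthesis, had 6916 and 6769 in control and 8390 and 8426 in ING3 cells (log2 difference 0.30, SE 0.055, adjusted p = 0.035). In the limma fit over all probe sets GMPS had an adjusted p of 0.080 on this probe set and was not called. Its second probe set was lower without overlap (-0.22, SE 0.073), and the mean over its probe sets gave a difference of 0.047 (adjusted p = 0.76), which ended the call. Of the 21 other genes of nucleotide supply 14 had a higher mean in ING3 cells, with a median of 0.066.

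Among 18 other licensing and firing factors 10 were higher and 8 lower, with 0 called. GMNN, geminin, the inhibitor of CDT1, had the lowest p, with 2349 and 2273 against 2769 and 2803 (log2 difference 0.27, SE 0.067, adjusted p = 0.084). Both ING3 values were above both control values. Among 18 other fork and polymerase subunits 11 were higher, again with 0 called. POLE4, a small subunit of polymerase epsilon, had 1921 and 1915 against 2309 and 2236 (0.24, SE 0.070, adjusted p = 0.12).

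The list of E2F and RB family members and G1/S kinases was evenly split, 11 higher and 11 lower of 22, and its gene with the lowest p was RBL2, the pocket protein p130 of resting cells, at 0.21 (adjusted p = 0.15). Of 5 tested CDK inhibitors 3 were higher, with CDKN1A, the p53-inducible inhibitor p21, at 0.34 (SE 0.17, adjusted p = 0.33). In chromatin assembly 9 of 12 were higher, and CASP8AP2, which acts in histone gene expression, had -0.35 (SE 0.10, adjusted p = 0.12). In the replication checkpoint 7 of 9 were higher, with WEE1, the kinase that restrains CDK1, at 0.19 (adjusted p = 0.22). None of these 4 lists held a called gene.

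The G2/M genes had a median log2 difference of 0.11, with 14 of 20 higher in ING3 cells, beside the median of 0.017 of the replication genes; the difference between these lists was not tested. NDC80, a kinetochore protein, had 3215 and 2970 in control and 4008 and 4082 in ING3 cells (0.39, SE 0.067, adjusted p = 0.028). In the limma fit over all probe sets its adjusted p was 0.069, so it was not called there. For 10 of the 20 both ING3 arrays were above both control arrays, as for 24.3% of all tested genes. Without control array a and without control array b 0 genes of the 8 lists were called, and the adjusted p of NDC80 was then 0.20 and 0.28 and that of GMPS 0.28 and 0.31.

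Of 7 markers of the line 5 were tested: KRT8 and KRT19 rose, by 0.32 and 0.52 on the log2 scale (adjusted p = 0.033 and 0.0078 by limma), while KRT18, KRT7 and VIM were not called, at 0.13, -0.16 and -0.065. EPCAM and CDH1 were under the filter on dim genes. Of 7 fibroblast markers 4 were tested and all 4 had lower means in ING3 cells, while the 3 under the filter had higher means (LUM at 2.43, PDGFRA at 1.24 and PDGFRB at 0.089). Of 6 measured leukocyte and endothelial markers 3 were tested, all with lower means, and of the 3 under the filter PTPRC and CD14 had higher means (0.38 and 0.87) and VWF a lower one (-0.47). None of the tested fibroblast, leukocyte and endothelial markers was called. The fibroblast markers COL1A2 and COL3A1 were bright in this carcinoma line. COL1A2 had 4648 and 4548 in control and 3749 and 3996 in ING3 cells (-0.25, limma adjusted p = 0.091). COL3A1 had 1414 and 1351 against 1289 and 1410 (-0.036). Over all genes 125 rose and 58 fell, and 2 genes were called when either control array was left out. As a reading of RNA integrity, signal at the 3' end of ACTB stood above that at its 5' end by a factor of 2.58 and 1.80 on control arrays a and b and of 2.05 and 2.03 on ING3 arrays a and b. The same ratio for GAPDH was alike on all 4 arrays, at 0.934 and 0.905 in control and 0.903 and 0.923 in ING3 cells. The part of these markers and of RNA integrity in the results above was not tested.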

How the data were processed

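The authors deposited 1 linear signal intensity for each of 54675 probe sets on each of 4 arrays. The submitters' processing notes name MAS5 and the Affymetrix Expression Console, with no version in the sources used here. On every array the trimmed mean signal was close to 500.1, so the arrays share a scale by that measure only. The median signal was 76.0 and 69.4 on control arrays a and b and 66.9 and 64.8 on ING3 arrays a and b. Quantile normalization and cyclic loess each moved the log2 differences by a median of 0.040 over all genes. MAS5 takes mismatch probes into account, and dim probe sets vary widely. Arrays have no read depth; how many there are limits the precision.

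The 62 control probe sets were left out. Probe sets were named from GEO's platform annotation of 2016 (41097 with 1 symbol, 1801 with several, 11777 unnamed here), with symbols checked by gene ID against RefSeq GRCh38.p14. For each gene the brightest probe set, by mean log2(signal + 1), was used. Log2 differences are on this scale, and the added 1 makes those of the dimmest probe sets too small. Without it the largest shift among the 41 genes was 0.0020 (E2F1). Genes at or above the median of all probe sets were tested with limma 3.58.1 in R 4.3.3 (lmFit, eBayes with an intensity trend, two-sided, no covariates, Benjamini-Hochberg). "Rose" and "fell" mean an adjusted p under 0.05. A separate fit covered all 27307 probe sets past the filter. The test was checked on simulated data with changes larger than any among the 41 genes. How often it finds differences as small as theirs was not examined. The genes and lists were chosen with earlier results of these data known. Every array's value was to be shown for called genes, for the 4 genes with the largest and the 4 with the smallest absolute t in each direction, and for genes whose probe sets differ in direction by more than 0.5; the other genes shown so were chosen after their values were seen; from the other lists, called genes or the gene with the lowest p were named. Alternatives were the pseudocount, filter, normalization, variance model, probe set choice, array letter as a block, and each array left out.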

Additional observations from a re-analysis of the deposited data

How the results depend on the processing

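The 0 calls among the 41 genes held under the other pseudocounts, filters, normalizations, variance models and probe set choices tried (lowest adjusted p 0.056 to 0.33), and leaving out 1 array gave 0 to 3 calls, with the lone array of a group assumed to vary like the other group. The median difference of the 41 genes was 0.062 with the mean of probe sets, 0.063 with probe sets not of the _x_at or _s_at kind, and -0.048 (without ING3 array a) to 0.052 with 1 array left out. With the mean of probe sets 5 genes changed sign, CDT1 among them. Over all genes limma called 54 without the filter, 115 after quantile normalization, 100 with probe sets not of the _x_at or _s_at kind, 0 without the intensity trend (1686 at an unadjusted p under 0.05), and 2 to 305 with 1 array left out. In the other replication lists the count of 2 became 0 without the filter, after quantile normalization and without the trend, 1 after cyclic loess and with the mean of probe sets, and 0 to 4 with 1 array left out. Among the probe sets of the 41 genes 0 to 1 were called with 1 array left out. The causes were not tested. What the letters a and b stand for was not given in the sources used here. The correlation across genes of the deviations of the 2 arrays of letter a from their group means was 0.029. With the letter as a replicate block limma called 442 genes, 3 of the 41 (CDT1, FEN1 and TYMS), 4 of their probe sets, 6 genes of the other lists, and ING3 at 0.58 (adjusted p = 0.040). With the mean of probe sets the ING3 difference was 0.14 (limma adjusted p = 0.67), and with 1 array left out it was 0.51 to 0.65.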

Other observations

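Of the 78 probe sets of the replication genes 9 were under the filter on dim signals, and a few of these lay far from the brighter probe set of the same gene. A dim MCM4 probe set had signals of 22.1 and 27.1 in control cells and 15.2 and 11.0 in ING3 cells (log2 difference -0.87, where the brightest gave -0.056). A dim CCNE2 probe set had 22.6 and 35.3 against 13.5 and 9.79 (-1.23, against -0.037). A dim RFC3 probe set had 25.8 and 56.2 against 77.4 and 77.0 (1.00, against 0.028), and a dim TYMS probe set had 92.0 and 67.9 against 79.5 and 25.0 (-0.81, against 0.27). These probe sets were not tested.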
